A study of Mus musculus with 8 samples.

Results

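The subunits of the oxidative phosphorylation system are encoded by 2 genomes, and their transcripts were compared in the retina of adult wild-type (WT) mice and of mice with a quadruple KO of Bcan, Ncan, Tnc and Tnr. The members were all genes of the deposited table whose symbol begins with mt-Nd, mt-Co, mt-Cytb or mt-Atp, with Nduf followed by a, b, c, s or v and a digit, with Uqcr, with Cox and a digit from 4 to 8, or with Atp5, apart from pseudogene and antisense symbols with -ps, os or as. This rule found 92 of 18058 genes, of which 13 are mitochondrially encoded and 79 nuclear, and it used no measured value.

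The WT mice were of the inbred strain 129S2/SvPasCrl, and the quadruple KO mice came from crosses of the 4 single KO lines, which carry constitutive KO alleles of matrix proteins (the tenascins C and R, and the proteoglycans neurocan and brevican). The animals were adults of both sexes, and exact age, sex, litter and preparation batch of the single libraries are not given in the sources used here. Each genotype is represented by 4 total RNA libraries with the letters A to D. Retinae were pooled before RNA extraction according to the study's methods, but how many retinae or animals entered a library is not given in the sources used here, so the p-values measure the spread between these libraries.

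Oxidative phosphorylation passes electrons from NADH through complex I, complex III and complex IV to oxygen, and complex V, the ATP synthase, uses the resulting proton gradient to make ATP. Complexes I, III, IV and V are each built from subunits of both genomes, whereas complex II is encoded in the nucleus alone. The circular mitochondrial DNA is transcribed into long precursors that are cut into mRNAs, and all of its protein genes except mt-Nd6 lie on the same strand. Photoreceptors, which make up most cells of the mouse retina, are known for a high density of mitochondria in their inner segments.

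The mitochondrial genes are packed so closely that neighbours share bases, which bears on how reads can be assigned to them. In GRCm39, mt-Atp8 (ENSMUSG00000064356.1, M:7766-7969) shares its last 43 bases, 21.1% of its length, with the start of mt-Atp6 (ENSMUSG00000064357.1, M:7927-8607). The shared bases of mt-Atp8 are in capitals here, and they include the start codon of mt-Atp6.

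mt-Atp8: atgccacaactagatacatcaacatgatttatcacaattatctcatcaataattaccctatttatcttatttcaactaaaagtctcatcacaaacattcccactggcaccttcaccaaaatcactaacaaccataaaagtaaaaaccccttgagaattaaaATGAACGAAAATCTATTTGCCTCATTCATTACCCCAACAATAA

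A shorter overlap of 7 bases joins mt-Nd4l (ENSMUSG00000065947.1, M:9877-10173) to mt-Nd4 (ENSMUSG00000064363.1, M:10167-11544). On opposite strands, mt-Nd5 (ENSMUSG00000064367.1, M:11742-13565) and mt-Nd6 (ENSMUSG00000064368.1, M:13552-14070) end across 14 common bases. Both windows are printed on the plus strand of M with the common bases in capitals, from M:10137-10203 and M:13522-13595.

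mt-Nd4l and mt-Nd4: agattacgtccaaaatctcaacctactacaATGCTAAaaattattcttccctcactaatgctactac

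mt-Nd5 and mt-Nd6: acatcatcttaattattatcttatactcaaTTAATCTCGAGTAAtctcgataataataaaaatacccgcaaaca

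Reads inside the capitals cannot be told apart between mt-Atp8 and mt-Atp6 or between mt-Nd4l and mt-Nd4. The library kit marks the strand, but the strand setting of the authors' counting is not given in the sources used here, and mt-Nd6 is the member for which it matters most because the precursor of the other strand runs through it.

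A second limit on read assignment concerns the nuclear member Ndufb4 (ENSMUSG00000022820.5, chromosome 16, 37467242 to 37474815, minus strand), an accessory subunit of complex I. The rule also matched Ndufb4c (ENSMUSG00000083380.2, chromosome 15, 73681356 to 73681745, minus strand), which GENCODE lists as a transcribed processed pseudogene. All 390 bases of Ndufb4c aligned without a difference to bases 95 to 484 of the Ndufb4 transcript, so that reads from this stretch fit both. The first 120 of these shared bases are shown because they are the same in both genes.

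Ndufb4: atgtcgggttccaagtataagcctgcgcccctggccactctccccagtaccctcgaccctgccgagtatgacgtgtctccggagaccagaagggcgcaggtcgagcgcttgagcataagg

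Before the members, the libraries and labels were checked. The estimated depth was 23.7 M reads in WT B and 27.2 M in WT C, and the other 6 libraries had 36.1 M to 52.5 M, with the value of 1 read estimated from the steps between low normalized counts. Ncan (569 to 789 in WT, 0 to 0.853 normalized counts in the KO), Bcan (197 to 327 and 11.5 to 22.1) and Tnr (5578 to 6317 and 2374 to 2580) were lower in every KO library than in every WT library, whereas Tnc, with 881 to 1592 in WT and 1024 to 1249 in the KO, overlapped. For Tnc, the study reported the loss of a stretch of the gene in the KO and found no specific protein there by western blot. All 7 rod markers examined were present, with summed levels of 640852 to 749165 normalized counts in WT and 776989 to 834022 in the KO. WT B and WT C stood apart from the other 6 libraries: Rpph1, the RNA of nuclear ribonuclease P, had 485768 and 446390 normalized counts there, compared with 154919 to 219316 elsewhere. Every WT library is given separately, as its difference from the mean of the 4 KO libraries on the scale log2(normalized count + 1).

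Per length of transcript, the mitochondrially encoded members were far more abundant than the nuclear ones. In the quadruple KO, where the 4 libraries were close to each other, mt-Co1 (ENSMUSG00000064351.1, M:5328-6872), the catalytic core of complex IV, had the highest level with 109857 ± 6701 normalized counts per kb (SD, n = 4). mt-Cytb (ENSMUSG00000064370.1, M:14145-15288), the mitochondrially encoded core of complex III, had 62963 ± 2059 per kb, and mt-Co3 (ENSMUSG00000064358.1, M:8607-9390) of complex IV had 60717 ± 4369 per kb. The single KO libraries of mt-Cytb (60722 to 65298 per kb) and mt-Co3 (56641 to 64780 per kb) overlapped. The lowest mitochondrial level was that of mt-Nd6, a membrane subunit of complex I, with 3696 ± 565 per kb.

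Among nuclear members, the highest level per kb was 15040 ± 504 (SD, n = 4) for Atp5b (ENSMUSG00000025393.13), the catalytic beta subunit of complex V. It was the only nuclear member above any mitochondrially encoded gene other than mt-Nd6, namely above mt-Nd4l and mt-Co2. In complex I the nuclear member with the highest mean was Ndufa4, a subunit first assigned to complex I and now placed in complex IV, with 7327 ± 407 per kb in the KO. Uqcrc1 of complex III, a core subunit, had 3149 ± 137 per kb and Cox4i1, the ubiquitous form of complex IV subunit 4, had 7251 ± 440 per kb. The ratio of the median mitochondrial to the median nuclear level per kb was 17.7 in complex I, 42.2 in complex III, 29.2 in complex IV and 19.9 in complex V. Lengths are those of 1 transcript per gene, so levels of short genes such as mt-Atp8 (204 bases) depend on that choice.

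**Figure D1:**
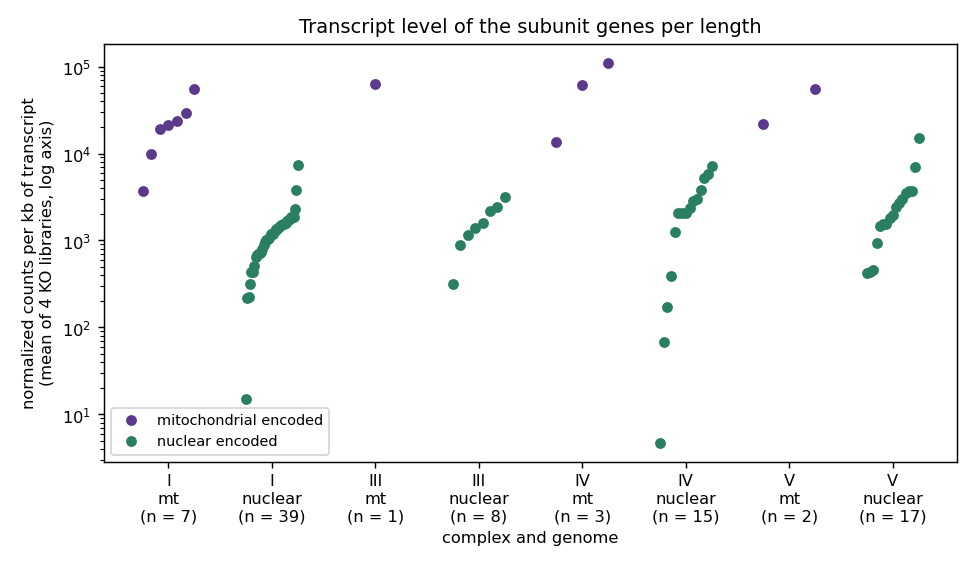
Normalized counts per kb of transcript (mean of the 4 KO libraries, log axis) for each member, with columns for complexes I, III, IV and V and for the genome that encodes the gene. Mitochondrially encoded genes reach 109857 per kb (mt-Co1) and nuclear genes 15040 per kb (Atp5b), while the tissue-restricted forms Cox8b and Ndufa4l2 sit lowest at 4.72 and 15.0 per kb.

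Between the genotypes, no member passed the test. Of the 92 members, 0 were called at a limma adjusted p under 0.05, where 0.437% of all 17636 genes tested were called (77 genes). The adjusted p of the members was 0.301 or higher. At an unadjusted limma p under 0.05 there were 3 of 13 mitochondrially encoded members (23.1%) and 13 of 79 nuclear members (16.5%), compared with 16.6% of all genes tested. None of the 20 alternative settings called a member, and the lowest adjusted p of any member over them was 0.0767, without WT D.

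The mean of 12 of the 13 mitochondrially encoded members was nonetheless higher in the quadruple KO, and this came with a wide spread in WT. Their median log2 difference (KO minus WT) was 0.84, with a range from -0.046 for mt-Nd6 to 1.20 for mt-Nd2, while the median of the nuclear members was -0.035 (range -0.84 to 0.91) and that of all genes tested was 0. When WT was represented by WT A and WT D alone, the median was -0.024 for mitochondrially encoded members (range -0.24 to 0.19) and 0.011 for nuclear members, and again 0 of 92 members were called, where 0.563% of 17585 genes were called. With array weights, which count WT B and WT C less, the mitochondrial median was 0.21. Without WT B or without WT C alone the mitochondrial median was 0.61 and 0.50, and without WT A or WT D it was 1.07 and 1.20. The nuclear median stayed near 0 and its sign was not stable. It was 0.056 when the libraries were scaled to their totals and 0.007 with array weights. With median ratio scaling it was -0.04 and with quantile normalization -0.011.

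**Figure D2:**
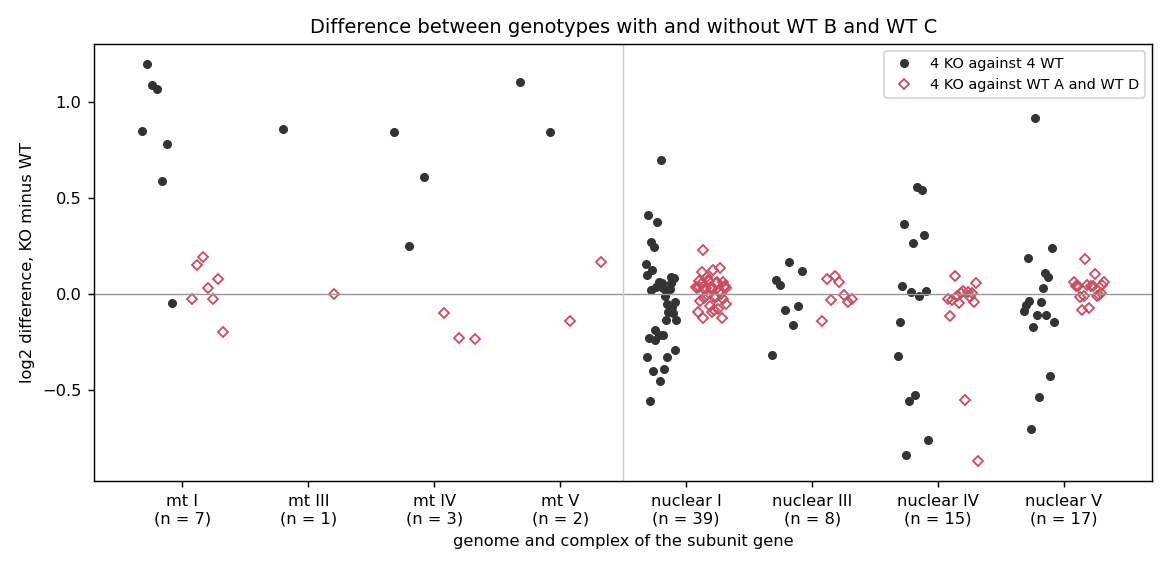
Log2 difference between the quadruple KO and WT for every member, by genome and complex, with all 4 WT libraries (filled circles) and with WT A and WT D alone (open diamonds). The mitochondrially encoded members move from a median of 0.84 to -0.024, and the nuclear members draw in around 0 except Cox8b at -0.87 and Cox7a1 at -0.55.

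The catalytic core of complex IV shows the pattern in single libraries. mt-Co1 had 165114 normalized counts in WT A, 52501 in WT B, 46284 in WT C and 199349 in WT D, and 156159, 176518, 167274 and 178963 in KO A to KO D. WT B and WT C were far below the 4 KO libraries, WT A lay among them and WT D above them, so the genotypes overlapped (log2 difference 0.84, standard error 0.45, limma adjusted p = 0.322, exact permutation p = 0.343, two-sided). Without WT B and WT C the difference was -0.098 with a standard error of 0.087.

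The other 2 mitochondrially encoded subunits of complex IV lay below the KO libraries by different amounts in WT B and WT C. mt-Co2 (ENSMUSG00000064354.1, M:7013-7696), which takes up electrons from cytochrome c, had 11205, 5596, 5383 and 10227 normalized counts in WT A to WT D and 11244, 9358, 7917 and 8327 in KO A to KO D. WT B and WT C held 60.8% and 58.4% of the KO mean, and the log2 difference between the genotypes was 0.25 with a standard error of 0.25. mt-Co3 stood at 37.6% in WT B and 35.6% in WT C (log2 difference 0.61, standard error 0.40, limma adjusted p = 0.38). Without WT B and WT C the differences of both turned to -0.23 for mt-Co2 and -0.24 for mt-Co3, with adjusted p values of 0.487 and 0.295 from limma.

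In complex V, mt-Atp6, the proton channel subunit, had the widest range of all members of this genome on the log2 scale. It had 32555, 10856, 5006 and 52995 normalized counts in WT A to WT D, compared with 34262, 38370, 36373 and 42072 in KO A to KO D. The value of WT C was 13.3% of the KO mean and that of WT B was 28.7%, while WT D was above every KO library (log2 difference 1.11, standard error 0.62, limma adjusted p = 0.335). mt-Atp8, an accessory subunit on the same precursor, had 36.1% of the KO mean in WT B and 33.2% in WT C. Its 4 WT values were 3607, 1620, 1488 and 4373 and its KO values ran from 3735 to 5074 (log2 difference 0.84, standard error 0.33, limma adjusted p = 0.301). The counts assigned to this overlapping pair of genes thus did not stay in proportion in WT C. The part of read assignment and coverage in this was not tested.

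Of the 7 mitochondrially encoded subunits of complex I, 6 had both WT B and WT C below the other 6 libraries. The largest difference of all members was that of mt-Nd2 (ENSMUSG00000064345.1, M:3914-4951), a proton-pumping subunit, with 15829, 5513, 3829 and 24331 normalized counts in WT A to WT D and 21326, 23679, 21101 and 21232 in KO A to KO D. The 4 KO libraries lay within a narrow band that WT D exceeded and WT A did not reach, and the log2 difference was 1.20 (standard error 0.51, limma adjusted p = 0.301, exact permutation p = 0.143, two-sided). mt-Nd3 (ENSMUSG00000064360.1, M:9459-9806) and mt-Nd4 followed with log2 differences of 1.09 and 1.07 (standard errors 0.45 and 0.50). For mt-Nd1 (ENSMUSG00000064341.1, M:2751-3707), mt-Nd5 and mt-Nd4l the log2 differences were 0.85, 0.78 and 0.59 with standard errors of 0.42, 0.35 and 0.33, and the exact permutation p values of these 5 genes lay between 0.0857 and 0.314. mt-Nd4l differed between WT B and WT C, with 57.7% and 32.6% of the KO mean.

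The exception was mt-Nd6, which is encoded on the strand opposite to the other 12 genes. It had 2042, 1479, 2112 and 2330 normalized counts in WT A to WT D and 2290, 1972, 1590 and 1820 in KO A to KO D. WT C lay within the KO range, and WT B, the lowest of the 8 libraries, still held 77.1% of the KO mean (log2 difference -0.046, standard error 0.16, limma adjusted p = 0.874; exact permutation test, p = 0.743). mt-Cytb, the neighbour of mt-Nd6 on the plus strand, had 63982, 24609, 19322 and 80992 normalized counts in WT A to WT D and 69466 to 74701 in the KO (log2 difference 0.86, standard error 0.41, limma adjusted p = 0.307).

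**Figure D3:**
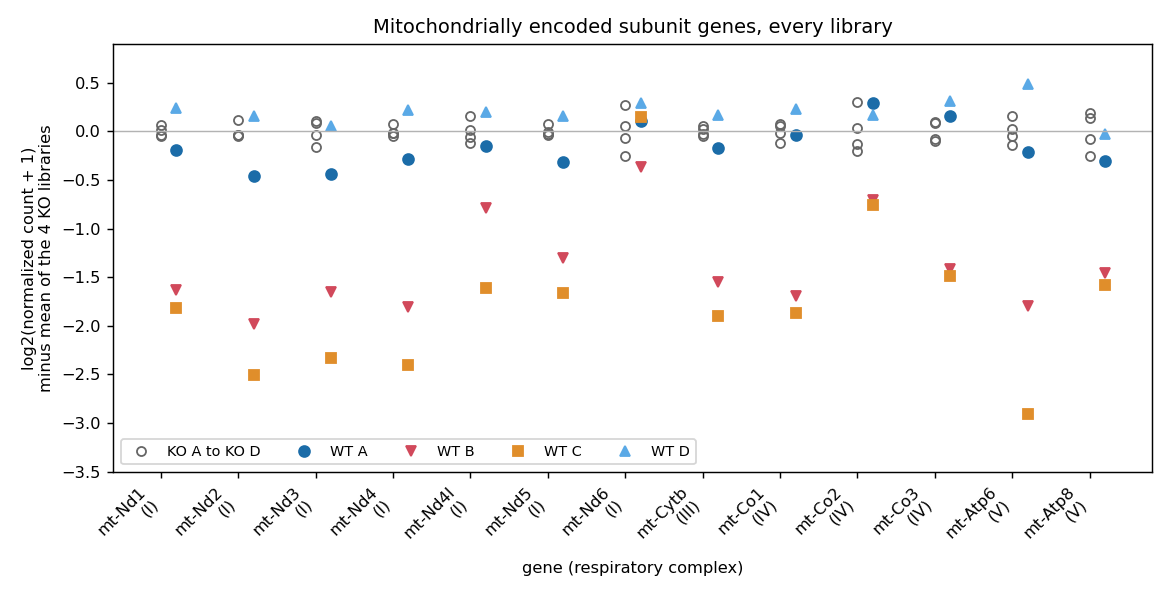
Difference of each library from the mean of the 4 KO libraries, on the scale log2(normalized count + 1), for the 13 mitochondrially encoded members with their complex. WT B and WT C lie below the other libraries for 12 genes, down to -2.91 for mt-Atp6 in WT C, and mt-Nd6 is the exception with -0.36 and 0.15.

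Seen over all 13 genes, the median difference from the KO mean in WT A to WT D was -0.19, -1.55, -1.81 and 0.20, while the medians over all genes tested lay between -0.01 and 0. WT B and WT C were both below the other 6 libraries in 12 of 13 genes (92.3%), compared with 27.6% of all genes tested. WT A and WT D also left the narrow KO range, in opposite directions: WT A was below all 4 KO libraries in 9 of 13 genes and WT D above them in 10 of 13. Over all genes tested these shares were 27.3% and 20.8%. The ribosomal RNAs of the mitochondrion, mt-Rnr1 and mt-Rnr2, come from the start of the same precursor and had log2 differences from the KO mean of -0.90 and -0.59 in WT B and -0.75 and -0.48 in WT C.

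The nuclear members did not share this shift. Their median difference from the KO mean was -0.01 in WT A, -0.01 in WT B, 0.16 in WT C and 0 in WT D. The spread among the members was nevertheless wider in WT B and WT C, with SDs over the 79 genes of 0.56 and 0.57, whereas WT A and WT D had SDs of 0.13 and 0.18. WT B and WT C were both above the other 6 libraries in 32 of 79 members (40.5%) and both below them in 21 (26.6%), where 28.2% and 27.6% of all genes tested did so. The share above was therefore higher than in the table at large, and the share below was near it. By complex, both libraries were above in 18 of 39 members of complex I, 3 of 8 of complex III, 3 of 15 of complex IV and 8 of 17 of complex V.

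The 2 ends of this range lie in complexes IV and V. Cox6a1 (ENSMUSG00000041697.9, chromosome 5, 115483701 to 115487050, minus strand), the broadly expressed form of complex IV subunit 6A, had 3155, 10114, 9059 and 2915 normalized counts in WT A to WT D and 3265, 2826, 3017 and 2946 in KO A to KO D. WT B and WT C thus held 336% and 301% of the KO mean, whereas WT A and WT D lay within the KO range (log2 difference -0.84, standard error 0.39, limma adjusted p = 0.303, and -0.011 without WT B and WT C). Atp5g2 (ENSMUSG00000062683.12, chromosome 15, 102571295 to 102580787, minus strand), a gene for the rotor ring subunit c of complex V, had 1327, 594, 546 and 1870 normalized counts in WT A to WT D and 1687, 1902, 1950 and 1630 in KO A to KO D. Here WT B and WT C held 33.1% and 30.4%, and the log2 difference was 0.91 (standard error 0.36, limma adjusted p = 0.301; exact permutation test, p = 0.0857).

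Subunit genes of a single complex therefore lay on both sides. In complex V, Atp5e, the epsilon subunit of the stalk, had 231% and 269% of the KO mean in WT B and WT C (log2 difference between the genotypes -0.70, standard error 0.30). Atp5b had 101% and 122% (log2 difference -0.056, standard error 0.087). The summed nuclear members of complex V had 78073, 85595, 98205 and 75530 normalized counts in WT A to WT D and 77182 to 81165 in the KO.

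Complex IV showed the same divergence for its broadly expressed subunits. Cox6b1, which faces the intermembrane space, had 193% and 229% of the KO mean in WT B and WT C, and Cox4i1 had 144% and 163%. Cox7a2, a small membrane subunit, had 49.1% and 44.1%, with a log2 difference between the genotypes of 0.56 (standard error 0.27, limma adjusted p = 0.307). Cox8a stayed at 99.6% and 104%.

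Complex I and complex III had narrower ranges. Ndufa2, an accessory subunit, had 197% and 228% of the KO mean in WT B and WT C and the lowest log2 difference of complex I (-0.56, standard error 0.26), and Ndufb4 had 35.1% and 42.6% and the highest (0.70, standard error 0.33). The identical copy Ndufb4c had 78.2% and 95.5%, but the split of reads between both genes is an estimate. Ndufa4 had 70.1% and 78.5% of the KO mean in WT B and WT C. In complex III the log2 differences ran from -0.32 for Uqcr10 to 0.17 for Uqcrc2, with 0 of 8 members called.

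**Figure D4:**
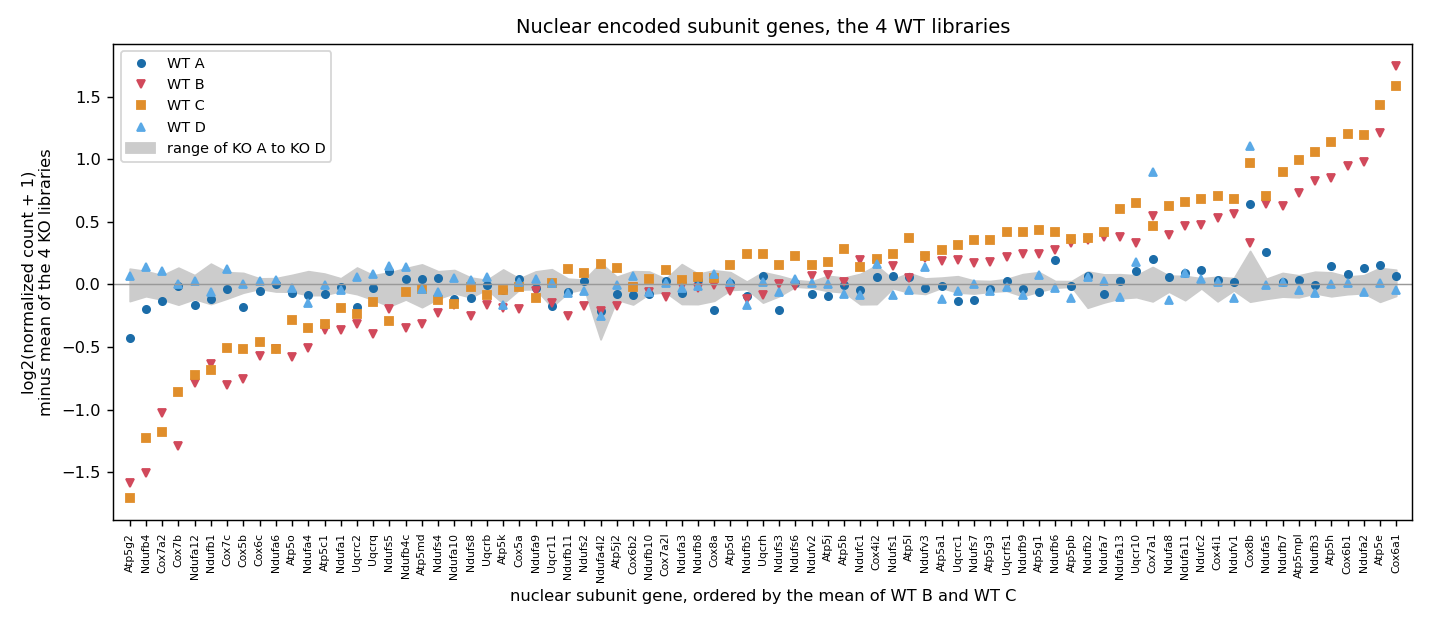
Difference of each WT library from the mean of the 4 KO libraries, on the scale log2(normalized count + 1), for the 79 nuclear members, ordered by the mean of WT B and WT C, with the range of the KO libraries as a grey band. WT B and WT C run from -1.59 and -1.71 for Atp5g2 to 1.75 and 1.59 for Cox6a1, and WT A and WT D stay near 0 except for Atp5g2 in WT A and for Cox7a1 and Cox8b.

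Base composition was compared because WT B and WT C differ from the rest with it across the whole table. The transcripts of mitochondrially encoded members had 31.9% to 41.1% GC and those of nuclear members 40.8% to 62.8%. Over 17554 genes with a known transcript, Spearman's rank correlation between the GC content and the difference from the KO mean was 0.36 for WT B and 0.40 for WT C, and over the 79 nuclear members 0.22 and 0.23. These are descriptions across genes of the same libraries, not across samples. The 1726 other tested genes with a GC content up to 41.1% had a median difference of -0.42 (WT B) and -0.49 (WT C), while these medians were -1.55 and -1.81 for the mitochondrially encoded members. The part of GC content, depth and RNA composition in these differences was not tested.

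The balance between the genomes was expressed as the ratio of summed mitochondrial to summed nuclear normalized counts per library. It was 2.64 in WT A, 0.857 in WT B, 0.627 in WT C and 3.40 in WT D, and 2.72, 2.96, 2.68 and 2.99 in KO A to KO D. The KO libraries lay between WT A and WT D, with WT A just below and WT D above all of them. The mean ratio was 2.83 ± 0.161 in the KO and 1.88 ± 1.36 in WT (SD, n = 4 each), and the mean log2 ratio differed by 0.93, which became -0.082 without WT B and WT C. A ratio within a library does not depend on a scaling factor that all of its genes share.

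In each of the 4 complexes WT B and WT C had the lowest ratios and WT D the highest. In complex I the ratio was 2.48, 0.934, 0.660 and 3.48 in WT A to WT D and 2.84 to 3.13 in the KO. In complex IV it was 8.67, 2.22, 1.89 and 9.76 in WT A to WT D and 7.92 to 9.14 in the KO. The lowest ratios were those of complex V, where WT A to WT D had 0.463, 0.146, 0.0661 and 0.760 and the KO 0.498 to 0.594. Complex V is also the complex in which the nuclear sum exceeded the mitochondrial sum in every library.

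**Figure D5:**
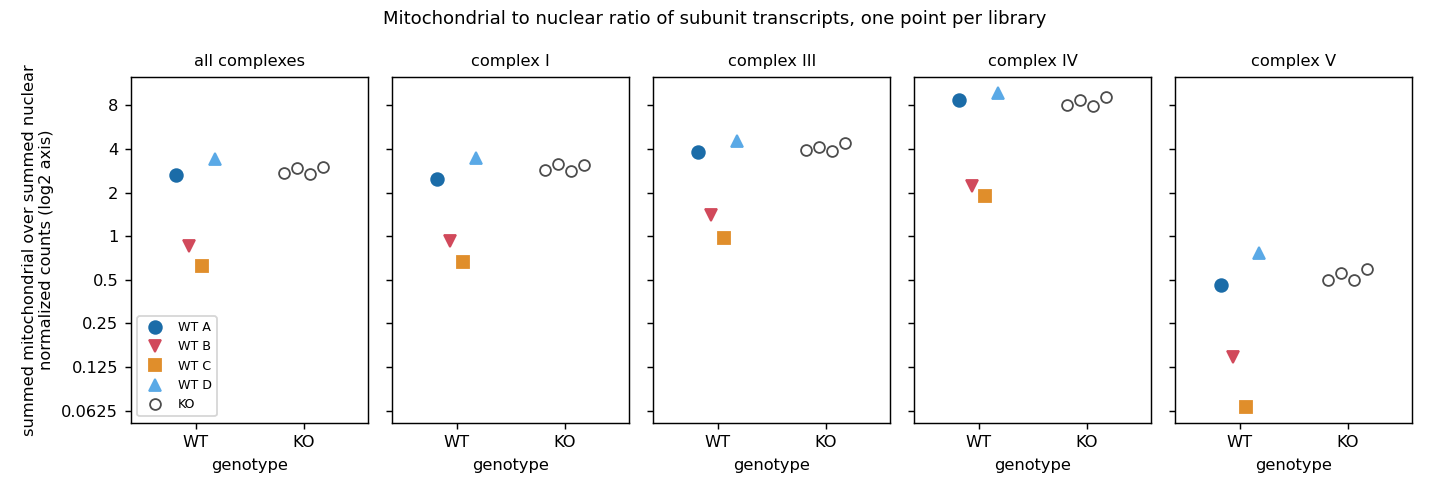
Ratio of summed mitochondrial to summed nuclear normalized counts of the subunit genes (log2 axis) for all complexes and for complexes I, III, IV and V, with 1 point per library. WT B (0.857) and WT C (0.627) lie below the KO libraries (2.68 to 2.99) over all complexes, and WT A (2.64) and WT D (3.40) lie on either side of them.

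Only a few nuclear members separated the genotypes, and these were all lower in the quadruple KO. The 4 KO values were below the 4 WT values for Ndufa11, Uqcr10, Cox7a1 and Cox8b, 4 of 79 members or 5.06%, and no member had all KO values above the WT values. Of all genes tested, 3.58% were separated with the KO lower and 6.16% with the KO higher (9.74% in all). Cox8b (ENSMUSG00000025488.10, chromosome 7, 140477069 to 140480359, minus strand), known as the form of subunit 8 in heart and skeletal muscle, had 16.3, 12.97, 20.7 and 22.8 normalized counts in WT A to WT D and 9.59, 9.08, 9.59 and 12.3 in KO A to KO D. This was the lowest p of all members, with a log2 difference of -0.76 (standard error 0.27, limma adjusted p = 0.301), and two-sided exact permutation p = 0.0286, the smallest that 4 against 4 libraries allow.

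Cox7a1 (ENSMUSG00000074218.4, chromosome 7, 29883569 to 29885503, plus strand), the muscle form of subunit 7A, had 34.7, 44.2, 41.6 and 56.5 normalized counts in WT A to WT D and 33.1, 27.2, 29.4 and 30.4 in KO A to KO D. The gap between the lowest WT and the highest KO library was small for both genes, and the log2 difference of Cox7a1 was -0.53 (standard error 0.19, limma adjusted p = 0.301). Without WT B and WT C the differences were -0.87 for Cox8b and -0.55 for Cox7a1, with limma adjusted p of 0.332 and 0.42. Of the 7 skeletal muscle markers, 3 were in the table, and their summed level was 67.4, 115, 119 and 71.0 normalized counts in WT A to WT D and 81.1 to 99.0 in the KO. The sums were highest in WT B and WT C and lowest in WT A and WT D, so the genotypes overlapped, and the part of muscle RNA was not tested. Myh1, Myh2, Tnni2 and Tnnt3 were not analysed here.

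Ndufa11, an accessory subunit of the membrane arm of complex I, had 834, 1084, 1233 and 833 normalized counts in WT A to WT D and 717 to 820 in the KO (log2 difference -0.33, standard error 0.13, limma adjusted p = 0.301). Uqcr10, a small subunit of complex III, had 1058, 1235, 1544 and 1111 in WT A to WT D and 916 to 1033 in the KO (log2 difference -0.32, standard error 0.12). In both, WT A and WT D were just above the KO range, and WT B and WT C further above it. Without WT B and WT C the log2 differences were -0.092 and -0.14.

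The ubiquitous forms of the isoform pairs prevailed in all libraries. Per kb, Cox4i1 exceeded the hypoxia-responsive lung form Cox4i2 16.96 to 26.5 times in WT and 17.4 to 21.4 times in the KO. Cox6b1 exceeded the testis form Cox6b2 15.9 to 38.4 times in WT and 15.3 to 19.3 times in the KO, with the highest ratios in WT B and WT C. Cox8a was 583 to 964 times the level of Cox8b in WT and 928 to 1436 times in the KO. Ndufa4 was 345 to 547 times the level of Ndufa4l2, a hypoxia-induced relative, in WT and 421 to 740 times in the KO. For Cox7a1, the level per kb was 0.0420 to 0.104 of that of Cox7a2 in WT and 0.0285 to 0.0369 in the KO. This ratio did not overlap between the genotypes, but Cox7a1 alone already separated them, as did 9.74% of all genes tested. Its highest values, 0.0993 and 0.104, were those of WT B and WT C, where Cox7a2 was low. The muscle form Cox6a2 was not analysed here.

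The promoters of the nuclear members were searched for letters bound by factors known to act on respiratory genes. In the RefSeq table of GRCm38.p6, 65 of the 79 nuclear symbols had an entry, from 250 bases before to 50 bases after the gene start. The NRF1 letters (GCGC, any base, T and again GCGC), read on both strands, were in 14 of 65 promoters (21.5%), compared with 9.6% of the 11999 promoters of tested genes and 4.78% of all 27025. The YY1 letters AAGATGGCG were in 6 of 65 (9.23%, 2.86% of promoters of tested genes), the ETS letters CCGGAAG in 14 of 65 (21.5%, 16.5%) and TATAAA in 7 of 65 (10.8%, 7.53%). A match is a description of the letters and not evidence of binding.

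Cox6a1 and Atp5g2, the extremes of WT B and WT C, both carry the NRF1 letters, and their 250 bases upstream of the start are shown for that reason. The windows are chr5:115348959-115349208 for Cox6a1 and chr15:102671048-102671297 for Atp5g2, both on the minus strand of GRCm38.p6. Capitals mark NRF1 and ETS letters.

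Cox6a1: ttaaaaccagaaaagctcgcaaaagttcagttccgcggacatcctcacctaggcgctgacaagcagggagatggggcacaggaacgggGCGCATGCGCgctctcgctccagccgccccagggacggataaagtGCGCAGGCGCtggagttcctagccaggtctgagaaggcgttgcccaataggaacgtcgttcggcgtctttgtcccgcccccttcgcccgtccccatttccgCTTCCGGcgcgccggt

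Atp5g2: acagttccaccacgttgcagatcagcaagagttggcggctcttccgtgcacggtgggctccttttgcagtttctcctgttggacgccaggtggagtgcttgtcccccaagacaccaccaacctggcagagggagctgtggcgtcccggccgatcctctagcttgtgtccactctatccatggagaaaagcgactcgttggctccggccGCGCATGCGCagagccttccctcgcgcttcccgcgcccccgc

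Other genes of the pathway, taken as whole lists, gave no call either. Among complex II and the electron carriers 0 of 8 genes were called, with a median log2 difference of -0.07, and among assembly factors 0 of 23, with a median of -0.17. Of the genes for mitochondrial transcription and RNA stability 0 of 14 were called (median -0.04), of the nuclear regulators 0 of 7 (median 0.17), and of the mitochondrial ribosome 0 of 78 (median -0.07). Of the mitochondrial rRNA 0 of 2 were called, and mitochondrial tRNA was not analysed here. Over these lists, 2, 5, 2, 2, 13 and 0 genes had an unadjusted limma p under 0.05. The 13 genes of the mitochondrial ribosome are 16.7% of that list, next to 16.6% of all genes tested. The ATP synthase inhibitor Atpif1, whose symbol the rule does not match, had 954 to 1056 normalized counts in WT and 884 to 1084 in the KO.

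Against the 28.2% of all genes tested in which WT B and WT C were both above the other 6 libraries, these were 16 of 23 assembly factors (69.6%), 37 of 78 genes of the mitochondrial ribosome (47.4%), 4 of 8 of complex II and the carriers, 7 of 14 of mitochondrial transcription and RNA stability and 2 of 7 nuclear regulators (28.6%). Both were below in 3, 20, 2, 5 and 4 genes of these lists, of which the nuclear regulators had the highest share (57.1%, 27.6% of all genes tested), and in 2 of 2 mitochondrial rRNA. Slirp, which stabilizes mitochondrial mRNA together with Lrpprc and was singled out after its values were seen, had 442, 191, 213 and 543 normalized counts in WT A to WT D and 460 to 562 in the KO (log2 difference 0.72, standard error 0.32, limma adjusted p = 0.301). Lrpprc itself had 3529, 3093, 3907 and 3258 in WT A to WT D and 3298 to 3472 in the KO. The low Slirp values thus fell in the same 2 libraries as the low mitochondrial mRNAs, while Lrpprc showed no common direction there, and the part of either was not tested.

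For several cell types, the summed markers of WT B and WT C also lay outside the values of the other 6 libraries. In bulk tissue, fewer cells of a type and less RNA per cell cannot be told apart. The summed Mueller glia markers were above the others, with 173582 and 167661 normalized counts against 113558 to 130854, but most of this sum is Glul, and only 3 of the 5 genes were above in both libraries while Slc1a3 was below. The sums of fibroblast and sclera markers (562 and 407 against 177 to 336) and of the 3 muscle markers (115 and 119 against 67.4 to 99.0) were likewise above. Of the 4 fibroblast and sclera genes, however, 2 were above in both libraries and 1, Dcn, was below in both. Of the muscle genes, 2 were above in both. The sums of endothelial markers (9855 and 8684 against 10248 to 11915) and oligodendrocyte markers (839 and 878 against 880 to 1572) were below. Most of the endothelial sum is Kdr and most of the oligodendrocyte sum is Mbp. The oligodendrocyte sum of WT C was only just below that of WT D (877.8 and 879.7). Of the 4 endothelial genes, 2 were below in both libraries and 1, Cldn5, was above. Of the 3 oligodendrocyte genes, 1 was below in both.

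For the remaining cell types WT B and WT C did not leave the other libraries on a common side. The summed rod markers had 720552, 640852, 749165 and 745580 normalized counts in WT A to WT D, all below the 776989 to 834022 of the KO. By gene, 0 of the 7 were called. Sag, Nr2e3 and Cnga1 were lower in every WT library than in every KO library, as were 6.16% of all genes tested. Gnat1, Pde6a, Pde6b and Nrl overlapped. In WT B and WT C, Nrl (59780 and 71038) and Pde6b (75468 and 84604) were above the KO libraries. Gnat1 (232072 and 271032) was below them in both. Cone markers had 22627 to 25659 in WT and 24448 to 26767 in the KO. Of the 6 cone genes, 1 was called at a limma adjusted p under 0.05 (0.437% of all genes tested). Among these genes, Pde6c had 655 to 871 in WT and 1321 to 2172 in the KO. Bipolar markers had 35362 to 40382 in WT and 37011 to 39863 in the KO, and blood markers 1040 to 1610 and 808 to 1197. Ganglion cell markers had 21737 to 24209 in WT and 17957 to 21468 in the KO. The ganglion cell sums did not overlap between the genotypes, but most of this sum is Nefl, and 0 of the 5 genes were called. By gene, Nefl, Sncg and Rbpms were lower in every KO library than in every WT library, as were 3.58% of all genes tested. Nefm and Pou4f1 overlapped. The pigment epithelium markers, of which 4 of 6 were in the table, were highest in WT D with 6128 normalized counts (1952 to 3424 in the other libraries). Lens markers ranged from 34.5 to 1742 without a split by genotype. The part of cell composition in the mitochondrial to nuclear ratio was not tested.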

How the data were processed

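Total RNA of 4 WT and 4 quadruple KO retina samples was sequenced with a directional total RNA kit. The authors trimmed reads with Trim Galore 0.6.7, aligned them with STAR 2.7.9a to GRCm39, quantified genes with Salmon 1.5.2 and deposited normalized counts from DESeq2 1.32.0. These deposited values are estimated counts after scaling and are not whole numbers, so no count model was used. The authors' fold changes and p-values in the same table were not used.

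Normalized counts were analysed as log2(value + 1) with limma 3.58.1 in R 4.3.3 (lmFit, eBayes with trend) for 17636 genes with a mean of at least 10, adjusted by the Benjamini-Hochberg method and called under 0.05. All 92 members passed this filter. The steps were tested on simulated data. Named genes were compared by two-sided exact permutation tests on normalized counts in Python 3.11.15 with scipy 1.17.1, for which 0.0286 is the smallest p. Transcript length, GC content and positions came from GENCODE vM39 (1 canonical transcript per gene, 82 tested genes without one). Of the low values per library, 47.2% to 68.7% lay within 0.1 of a whole read, so whole reads were not recovered and depth is an estimate.

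The members, the gene lists and the rule for named genes were chosen with earlier results of these data known. The rule names the mitochondrially encoded members, called members, per complex the nuclear member with the highest level per kb and those with the highest and lowest log2 difference, and the isoform pairs. One gene of the marker lists is not reported here and enters no sum. Ndufa11, Slirp, Lrpprc and Rpph1 were named after their values were seen. Alternatives were 3 other scalings, other filters and pseudocounts, eBayes without trend or robust, array weights, the letters as a block, each library left out, and WT B and WT C left out.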

Additional observations from a re-analysis of the deposited data

Results flagged for a closer look

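Within groups of 4 libraries, 5 of the 74 groups examined (named genes in each genotype, and the mitochondrial to nuclear ratio in total and by complex) held a library whose gap to its nearest neighbour took a larger share of the range than Dixon's critical value for 4 samples. Chance alone marks about 1 in 20 such groups. Cox4i1 was lowest in KO D with 5166 normalized counts, compared with 5804 to 5915 in the other KO libraries. Cox8b was highest in KO D with 12.3, compared with 9.08 to 9.59. Ndufa4l2 was highest in WT C with 16.1 (11.8 to 12.2 in the other WT libraries) and lowest in KO A with 10.3 (15.7 to 16.2 in the other KO libraries), both near the filter on low values. mt-Nd2 was highest in KO B with 23679, compared with 21101 to 21326. WT B and WT C are a pair, so the gap of a single library to its neighbour does not mark them.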

How the results depend on the processing

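No member was called under any of the 20 alternatives, with 3 to 45 of the 92 members at an unadjusted limma p under 0.05. As reported there were 16, where 16.6% of all genes tested had such a p. Without WT B and WT C there were 4, where 11.6% of all genes tested did. The highest count, 45, came without WT D. For that setting and the remaining alternatives the share over all genes tested is not given here. The number of genes called over the whole table, 77 as reported, was 143 with array weights and 51 with the letters A to D as a replicate block, and 54 to 89 with 1 library left out. The block left 0 members called, the mitochondrial median at 0.84 and the nuclear median at -0.035. Same-letter deviations from the group means correlated at -0.01, -0.11, 0.10 and 0.05, so no pairing by letter was seen. These correlations do not exclude a shared litter or batch.

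The results that moved by more than the spread between libraries did so without WT B and WT C, where the mitochondrial median became -0.024 and the log2 difference of the ratio -0.082, and with scaling to library totals, where the nuclear median became 0.056. Array weights lowered the mitochondrial median to 0.21, a shift just within that spread (0.71), with mt-Co1 at 0.11 and mt-Atp6 at 0.21. With 1 library left out, the mitochondrial median ranged from 0.50 to 1.20, the nuclear median from -0.05 to 0.00 and the ratio from 0.52 to 1.33. A gene's sign was counted as changed only where both values exceeded their standard errors. This held without WT B and WT C for mt-Co1 (-0.098), mt-Co2 (-0.23) and mt-Co3 (-0.24), and with array weights for mt-Co2 (-0.18), and for no other of the 637 values of named genes. The cause was not tested. Depth limits Cox8b and Ndufa4l2, whose means lie near 10 to 18 normalized counts.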
